A study of Mus musculus with 47 samples.

Results

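The late dark phase, at Zeitgeber time 22 (ZT22, 22 h after lights on), was examined for what 10 days of microglial depletion did to the cortical transcriptome of the mouse. The members were chosen by their labels alone: all libraries labelled ZT22, which are 8 of the 47 libraries in the series, 4 from mice on control diet and 4 from mice on PLX5622. The other 39 libraries came from the same diets at ZT2, ZT6, ZT10, ZT14 and ZT18. All mice were adult male C57BL/6J wild types of about 3 months, group-housed under a light/dark cycle, and each gave 1 library of total RNA from microdissected cortex of 1 hemisphere. PLX5622 was given in chow at 1200 ppm, and the control mice ate the chow without it. The inhibitor was given in the diet, so every cell that carries its target receptor was exposed to it. Which mice shared a cage, and which of the 2 sequencing platforms named in the labels read which library, is not given in the sources used here.

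Microglia are the resident macrophages of the brain and depend on the colony-stimulating factor 1 receptor (CSF1R) for survival. PLX5622 blocks this receptor, and most microglia die while it is given. Their transcripts then fall in bulk tissue, where fewer cells and less RNA per cell cannot be told apart.

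The 8 libraries held 17161327 to 23827625 counted reads. No difference between diets was detected in these totals (exact permutation test over 70 splits, two-sided, p = 0.886, smallest possible p 0.0286). The same test found none in the mitochondrial share of the counts, which ran from 6.57% to 9.19% (exact permutation p = 0.771). The limma p-values rest on 1 estimate of the spread between mice, from all 47 libraries. A fit to the 8 libraries alone gave fewer calls, as given below. Transcripts of cortical excitatory neurons were abundant in all 8 libraries, at a summed 4970 to 6712 TPM over 12 markers. Markers of neighbouring tissue were present too, with 383 to 1102 TPM over 10 striatal genes and 160 to 1474 TPM over 10 choroid plexus genes. The fourth mouse of each diet stood apart from its group in the activity-induced genes. Fos was at 5.70, 5.93, 6.07 and 20.9 TPM in control mice and at 4.91, 4.38, 6.4 and 17.8 TPM in PLX5622 mice. The fourth mouse was also highest in Arc and Npas4 in both diets. This was not particular to ZT22: over all times, the fourth mouse was highest in Npas4 in 11 of 11 groups of 4 (7.45 to 16.3 TPM, other mice 1.01 to 6.95 TPM) and in Fos and Arc in 10 of 11. What the fourth mice share is not given in the sources used here.

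At ZT22 the diet lowered microglial and other immune-cell transcripts and raised few others. Of 14580 genes tested with limma on log2(TPM + 1), 189 passed an adjusted p of 0.05, which is 1.3% of those tested. The called genes split into 182 with less RNA under PLX5622 (1.25%) and 7 with more (0.048%). The median log2 change over all tested genes was -0.01. Among the called genes, 106 fell by more than 1 on the log2 scale and 30 by more than 2. The 4 PLX5622 values lay all below the 4 control values in 171 of the 182 lower genes, and all above in 5 of the 7 higher genes, where 705 of all tested genes (4.84%) had values that did not overlap. With the fourth mouse of both groups left out, 154 genes were lower and 4 higher. With the fourth mouse of every group at every time left out, 153 were lower and 4 higher, and with the replicate number as a block 196 were lower and 12 higher. A fit to the 8 libraries alone called 137 genes, 125 of them among the 189. A count model, edgeR, called 308 of its 18274 genes (1.69%), 287 lower and 21 higher. With the mitochondrial share of each library as a covariate, the split was 206 lower and 46 higher.

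Among the called genes, the deepest falls in log2(TPM + 1) were in genes of the microglia list. That scale understates the fall of low genes. Ccl9, in no list, kept 1.58% of its control TPM, where the lowest share in the microglia list was 6.51%. Of 28 microglia list genes, all passed the filter on low values and 27 were called lower, also without the fourth mice. Their median log2 change was -2.70, against -0.01 for all tested genes, and the median gene kept 11.2% of its control TPM. C1qa, a chain of the complement protein C1q, was at 111, 133, 116 and 88.3 TPM in the 4 control mice and at 8.98, 7.94, 7.39 and 4.92 TPM in the 4 PLX5622 mice. The groups did not come near each other, and C1qa fell by 3.78 on the log2 scale (SE 0.45, limma adjusted p = 9.45e-08). Its partner chains C1qb and C1qc fell by 3.52 and 3.25. The 3 genes lie side by side on chromosome 4 (GRCm38), C1qb at 136880129 to 136886187, C1qc at 136889804 to 136893065 and C1qa at 136895917 to 136898803. Csf1r, the target of the inhibitor, was at 52.4, 65.9, 72.4 and 45.2 TPM in control mice and at 5.88, 7.52, 3.31 and 3.73 TPM in PLX5622 mice. Every treated mouse was far below every control mouse (log2 change -3.33, SE 0.43, limma adjusted p = 7.42e-07).

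RNA for surface proteins of microglia, receptors for neuronal signals among them, fell as well. Some of these log2 changes were smaller, such as -1.57 for Cd33 and -1.37 for Slc2a5. P2ry12, the purinergic receptor that guides microglial processes, was at 45.3, 45.5, 40.3 and 44.0 TPM in control mice and at 3.69, 5.05, 2.41 and 4.11 TPM in PLX5622 mice. The control values were within a narrow band, and the log2 change was -3.25 (SE 0.32, limma adjusted p = 1.59e-09). Cx3cr1, the receptor for the neuronal chemokine fractalkine, fell by 2.94, Siglech by 3.14 and Selplg by 2.99. The adaptor Tyrobp, which carries signals of immunoglobulin-like receptors, fell by 3.17, the related adaptor Fcer1g by 2.89 and Trem2 by 2.68. Ctss, a lysosomal cysteine protease, was at 93.6, 108, 87.0 and 79.9 TPM in control mice and at 17.7, 9.38, 8.22 and 5.71 TPM in PLX5622 mice, with a log2 change of -3.14. The first PLX5622 mouse held the most Ctss of its group and was still below all controls.

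Some members of the microglia list kept much more of their signal. Tgfbr1, a receptor chain for transforming growth factor beta, kept 41.0% (log2 change -1.05), and Sall1, a transcription factor of the microglial lineage, kept 54.8% (log2 change -0.73, SE 0.14, limma adjusted p = 6.99e-04). Mertk, a phagocytic receptor tyrosine kinase, was the list gene that did not pass. It was at 18.5, 21.5, 19.6 and 18.6 TPM in control mice and at 19.5, 15.3, 12.9 and 16.9 TPM in PLX5622 mice, so the groups overlapped (log2 change -0.27, limma adjusted p = 0.480).

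**Figure D1:**
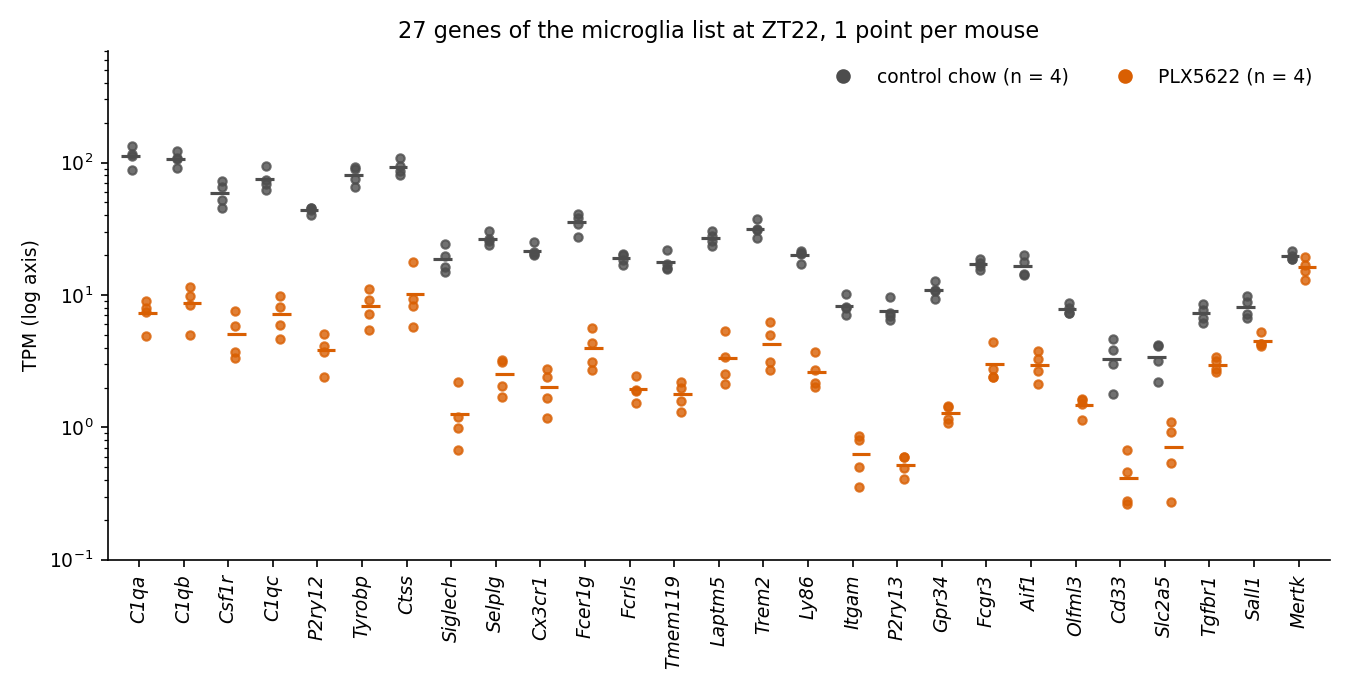
TPM (log axis) of 27 of the 28 microglia list genes at ZT22, ordered by the size of their fall. Grey points are the 4 control mice, orange points the 4 PLX5622 mice and short lines the group means. The groups overlap in Mertk, at the right end, and C1qa, at the left end, kept 6.51% of its control mean.

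The promoters of 4 genes called lower are shown as examples that hold letters of a PU.1 site, so they are not a sample of the called genes. Pf4 is from the border macrophage list and not from the microglia list. Spi1, which encodes the myeloid transcription factor PU.1, was itself lower (described below). Whether that had a part in the fall of these genes was not tested. PU.1 binds ETS-type sites whose letters include GAGGAAGT and, inside it, the shorter GAGGAA. Each sequence is the 250 bases before the RefSeq gene start in GRCm38.p6, read 5′ to 3′ on the strand of the gene. Capitals mark these letters on either strand, and no GENCODE exon overlaps any of the 4 windows. C1qb lies on the minus strand at chr4:136886201-136886450, Ctss on the plus strand at chr3:95526536-95526785, P2ry13 on the minus strand at chr3:59210883-59211132 and Pf4 on the plus strand at chr5:90772185-90772434.
C1qb: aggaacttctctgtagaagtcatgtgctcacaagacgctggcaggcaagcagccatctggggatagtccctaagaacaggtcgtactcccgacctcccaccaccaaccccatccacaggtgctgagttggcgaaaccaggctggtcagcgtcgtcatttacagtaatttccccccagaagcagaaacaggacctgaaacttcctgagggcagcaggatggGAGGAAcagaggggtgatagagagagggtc
Ctss: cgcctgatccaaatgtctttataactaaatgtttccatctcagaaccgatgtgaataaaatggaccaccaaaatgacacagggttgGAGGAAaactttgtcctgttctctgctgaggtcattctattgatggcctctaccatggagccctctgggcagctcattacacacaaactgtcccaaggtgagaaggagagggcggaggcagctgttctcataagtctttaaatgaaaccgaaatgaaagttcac
P2ry13: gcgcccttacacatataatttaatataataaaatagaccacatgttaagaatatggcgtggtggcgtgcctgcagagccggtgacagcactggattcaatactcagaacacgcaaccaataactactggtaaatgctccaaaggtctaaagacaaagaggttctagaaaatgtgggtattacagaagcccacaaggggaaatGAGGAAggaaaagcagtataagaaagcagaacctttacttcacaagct
Pf4: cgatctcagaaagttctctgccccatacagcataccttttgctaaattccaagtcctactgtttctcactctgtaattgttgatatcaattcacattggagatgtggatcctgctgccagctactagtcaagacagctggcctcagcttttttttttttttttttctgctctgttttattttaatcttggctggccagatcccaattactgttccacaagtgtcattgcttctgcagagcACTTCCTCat

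The Pf4 window holds the longer form on the other strand, and the other 3 hold the shorter form. Over the whole RefSeq table, 25.9% of 27025 genes had GAGGAA and 2.79% had GAGGAAGT on either strand of such a window. Among the 142 of 182 genes called lower at ZT22 with an entry, 63 (44.4%) had the shorter form and 11 (7.75%) the longer. Among the 21 of 28 microglia list genes with an entry, 12 (57.1%) and 1 (4.76%) did. These are counts of letters with no test, and they do not show that PU.1 binds there.

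Most genes called lower, 146 of 182, were in none of the lists, and 112 of these were also called at 1 or more other times. The largest falls among them, picked after their values were seen, were again in myeloid genes. Crybb1, a lens crystallin also made by microglia, was at 16.3, 18.5, 15.6 and 15.9 TPM in control mice and at 1.91, 1.92, 1.22 and 0.546 TPM in PLX5622 mice (log2 change -2.92, SE 0.18). Its limma adjusted p, 6.82e-15, was the smallest of all genes at ZT22. Spi1 was at 5.81, 7.39, 5.02 and 3.89 TPM in control mice and at 0.629, 0.462, 0.359 and 0.445 TPM in PLX5622 mice, so 8.57% of its mean was left. The pore-forming Mpeg1 fell by 2.17, the endosomal nuclease Pld4 by 2.21 and Unc93b1, which escorts nucleic acid sensing Toll-like receptors, by 2.03. Ncf1, a cytosolic subunit of the phagocyte NADPH oxidase, fell by 2.02, and Lag3, an inhibitory receptor, by 2.13. The chemokine Ccl9 was at 1.45, 4.04, 2.60 and 4.79 TPM in control mice and below 0.1 TPM in each PLX5622 mouse.

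Genes of macrophages at the borders of the brain were lower as well where they could be tested. Of 10 border macrophage genes, 3 passed the filter on low values and 2 were called (2 without the fourth mice at ZT22, 3 without the fourth mouse of every group). Stab1, a scavenger receptor, was at 4.18, 4.85, 4.90 and 4.36 TPM in control mice and at 0.826, 0.943, 0.535 and 0.565 TPM in PLX5622 mice (log2 change -1.70, SE 0.22, limma adjusted p = 4.58e-07). Pf4, a platelet and macrophage chemokine, was at 5.67, 7.04, 3.53 and 2.67 TPM against 1.30, 2.23, 0.401 and 0 TPM (log2 change -1.61, SE 0.28), with a wide spread in both diets. The Pf4 call was lost with a pseudocount of 0.1 and in the fit to the 8 libraries alone. The other genes of the list were too low for the test. Mrc1, the mannose receptor, averaged 1.08 TPM in control mice and 0.0278 TPM in PLX5622 mice, and Ms4a7 was listed at 0 in all 4 PLX5622 mice against 0.213 to 0.887 TPM in control mice.

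Among complement and major histocompatibility complex (MHC) genes, 5 of 13 tested were called lower and 0 higher. Without the fourth mice at ZT22, 3 were called lower, and without the fourth mouse of every group 2. The MHC class II chain H2-Aa was at 5.82, 5.02, 2.56 and 4.10 TPM in control mice and at 1.5, 0.799, 1.87 and 0.309 TPM in PLX5622 mice. The third control mouse was lowest of its group but above all treated mice (log2 change -1.36, SE 0.23, limma adjusted p = 1.08e-04). The class II partners Cd74 (limma adjusted p = 0.0204) and H2-Ab1 (limma adjusted p = 0.0232) fell as well, and the class I light chain B2m fell by 0.49. Except for H2-Aa, each of these named calls was lost when 1 of several mice was left out. C4b, the classical pathway component that astrocytes also make, was not called, at 6.15 to 10.6 TPM in control mice and 9.69 to 11.4 TPM in PLX5622 mice (log2 change 0.33, limma adjusted p = 0.532). At the other times its log2 change ran from 0.36 at ZT10 to 0.87 at ZT14, with limma calls at ZT6, ZT14 and ZT18, and the values did not overlap between diets at ZT2, ZT6, ZT14 and ZT18. The difference of ZT22 from their mean was -0.28 (limma unadjusted p = 0.0849).

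Of 11 tested genes for matrix proteases and their inhibitors, 3 were called lower, also without the fourth mice. Besides Ctss, these were the aspartyl protease Ctsd, which fell by 0.51, and the cysteine protease inhibitor Cst3. Cst3 is among the most abundant cortical transcripts, at 3635 to 4685 TPM in control mice and 3017 to 3227 TPM in PLX5622 mice (log2 change -0.46, SE 0.09, limma adjusted p = 0.00207). The Cst3 call was not made by edgeR (adjusted p = 0.113) or after either rescaling of the TPM, and it was kept with any 1 mouse left out. The Ctsd call was made by edgeR (adjusted p = 2.02e-05) but was lost without the second or the third control mouse or the first or second PLX5622 mouse. Both calls were lost in the fit to the 8 libraries alone.

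The 7 genes called higher were a mixed set, of which 6 are described. Sulf1, an enzyme that removes sulfate groups from heparan sulfate at the cell surface (chromosome 1, 12692277 to 12861192, GRCm38), was at 3.64, 4.25, 4.53 and 3.97 TPM in control mice and at 5.58, 6.39, 7.21 and 8.61 TPM in PLX5622 mice. All treated mice were above all controls (log2 change 0.63, SE 0.12, limma adjusted p = 0.00133), and edgeR called Sulf1 too, at 0.46 (adjusted p = 0.0288). Its call was lost with the fourth mouse of both groups left out and in the fit to the 8 libraries alone. Rbm3, a cold-inducible RNA-binding protein, was at 107, 96.4, 91.2 and 108 TPM against 108, 133, 143 and 131 TPM. The lowest treated mouse was close to the highest controls, the log2 change was 0.35 (limma adjusted p = 0.0438), and the call was not made by edgeR (adjusted p = 0.0739) or after either rescaling of the TPM. At the other times the change of Rbm3 ran from 0.10 to 0.22, and it was called in their mean (0.16, limma adjusted p = 0.0284). Rbbp4, a histone-binding subunit of chromatin complexes, was higher by 0.51 in TPM but by 0.10 in the counts, where it was not called. The remaining 3 described are uncertain. Gm48992, a long noncoding RNA, stayed near 1 TPM, at 0.386 to 0.679 in control mice and 0.826 to 2.15 in PLX5622 mice. Gm29668 and Gm12481 are pseudogenes, whose reads can be shared with their parent genes, and they lie within Cntnap5b and over Fam221b. Gm29668 was listed at 0 TPM in all 4 control mice and at 2.2 to 4.17 TPM in PLX5622 mice, and it had 8 counts in all 47 libraries together.

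The effect at ZT22 was set beside the same contrast at the other times, with which it shares no library. The number of called genes was 188 at ZT2 (1.29%), 147 at ZT6 (1.01%), 156 at ZT10 (1.07%), 132 at ZT14 (0.905%) and 118 at ZT18 (0.809%), so ZT22, with 189, was close to ZT2 at the top of this range. These counts come from groups of 3 or 4 mice, and their differences were not tested. In edgeR the order was different, with 380 at ZT2 and 309 at ZT10 above the 308 at ZT22. Of the 189 genes, 97 were called at all 5 other times, 18 at 4, 9 at 3, 8 at 2, 17 at 1 and 40 at none. In the mean effect over the other 5 times, where 358 genes were called (2.46%), 182 of the 189 had the same sign and 161 were called. Across the 189 genes the 2 effects had a Pearson correlation of 0.93, and across all tested genes of 0.59. Genes are not independent replicates, so these describe the points only.

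**Figure D2:**
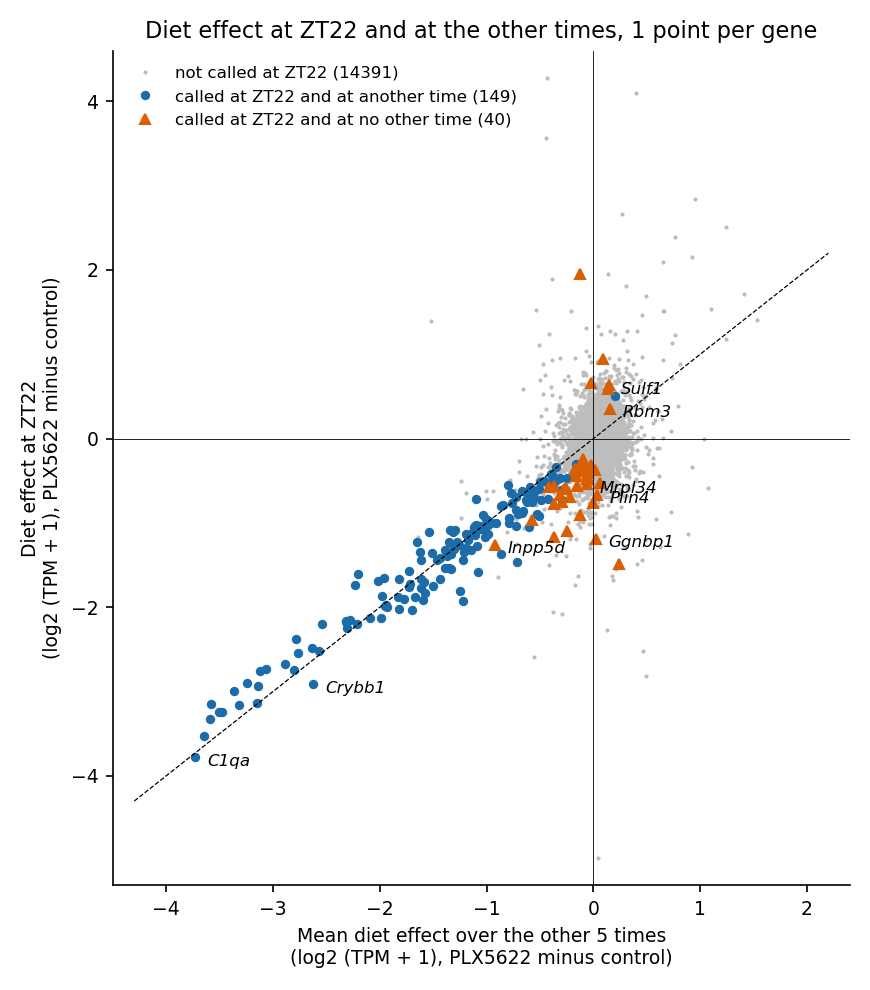
Diet effect (PLX5622 minus control, log2(TPM + 1)) at ZT22 on the y axis and as the mean over the other 5 times on the x axis, 1 point per tested gene. Grey points were not called at ZT22, blue circles were called at ZT22 and at least 1 other time (149) and orange triangles at ZT22 and no other time (40); the dashed line marks equal effects. Blue points follow the dashed line and orange triangles lie mostly close to 0 on the x axis, which follows in part from how they were picked.

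The microglial fall was of middling size at ZT22. The list median of -2.70 lay within the range over the other times, from -3.24 at ZT2 to -2.37 at ZT18, and 26 or 27 of the 28 genes were called at each of them. The mean log2 level of the 28 genes was 4.57, 4.79, 4.54 and 4.42 in the 4 control mice and 2.39, 2.17, 1.96 and 1.85 in the 4 PLX5622 mice. The group difference was -2.49, inside the range from -3.01 at ZT2 to -2.18 at ZT18. The treated mice at ZT22 were more alike than at most times, with an SD of 0.237 against 0.784 at ZT10, 0.533 at ZT2 and 0.241 at ZT18. Before adjustment, 0 of the 28 genes were under 0.05 in the limma test of ZT22 against the other times, the smallest being 0.103 for Gpr34 (effect -2.38 at ZT22 and -2.79 at the others).

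**Figure D3:**
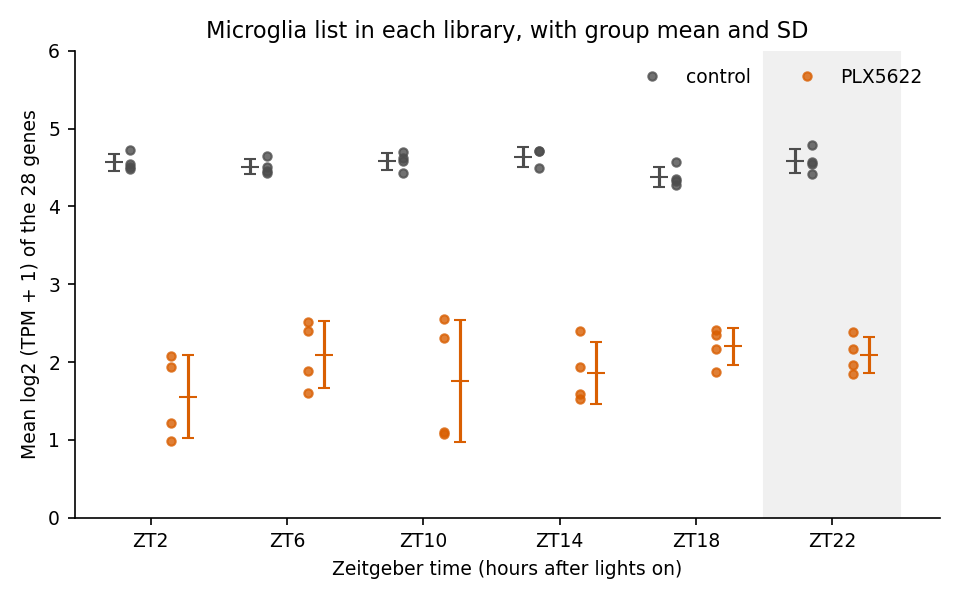
Mean log2(TPM + 1) of the 28 microglia list genes in each of the 47 libraries by Zeitgeber time, with ZT22 shaded. Points are mice, horizontal ticks group means and bars 1 SD (n = 4, and n = 3 for control at ZT14). The 4 PLX5622 mice at ZT22 lie between 1.85 and 2.39, and the SD is widest in PLX5622 mice at ZT10.

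The 40 genes called at ZT22 and at no other time (34 lower, 6 higher) were weaker effects than the rest. Their median absolute log2 change was 0.58, and over the other times the median change in the same direction was 0.13. These genes were picked for passing at ZT22 and nowhere else, so a smaller change at the other times follows in part from the picking. The other 149 genes had a median log2 change of -1.26. Of the 40, 33 had the same sign in the mean of the other times and 13 were called there, and edgeR called 16 of the 37 it tested, against 141 of 148 for the rest. Without the fourth mice at ZT22, 15 of the 40 and 131 of the 149 were still called. Being called at 1 time and not at another does not show a difference, and the difference itself was tested below.

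Some of the 40, picked here after their values were seen, are known microglial genes that missed the threshold elsewhere. Inpp5d, a lipid phosphatase of myeloid cells, was at 5.56, 14.5, 5.0 and 5.87 TPM in control mice and at 1.85, 2.31, 2.58 and 2.77 TPM in PLX5622 mice. The second control mouse was far above the others, the log2 change was -1.26 at ZT22 and -0.92 over the other times, and the call was lost without the second control mouse or the first PLX5622 mouse. Adap2 fell by 0.96 (-0.58 over the other times) and the ATP-gated channel P2rx7 by 0.67 (-0.31), and both calls were lost when 1 of several mice was left out. Selenop, the selenium transport protein, was at 335, 360, 371 and 292 TPM in control mice and at 238, 219, 240 and 205 TPM in PLX5622 mice (log2 change -0.59, SE 0.12, limma adjusted p = 0.00207, edgeR adjusted p = 0.0026). The groups were well apart at ZT22, and the change at the other times ran from -0.39 to -0.16.

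Gusb and Plin4 were close to 0 at the other times, and other genes below were not. Gusb, lysosomal beta-glucuronidase, was at 14.8, 13.7, 13.8 and 13.4 TPM in control mice and at 9.72, 9.62, 9.75 and 11.0 TPM in PLX5622 mice. It fell by 0.44 at ZT22 (SE 0.10, limma adjusted p = 0.00889, edgeR adjusted p = 0.0436), where its change at each other time lay between -0.08 and -0.03. Pnpla2, the triglyceride lipase of fat droplets, was at 17.7 to 25.4 TPM against 13.5, 12.6, 11.1 and 17.2 TPM (log2 change -0.56, edgeR adjusted p = 4.51e-04), and the fourth treated mouse came close to the controls. At the other times Pnpla2 ran from -0.26 to 0.05. Plin4, a droplet coat protein, fell by 0.67 but was low, at 0.88 to 3.1 TPM in control mice, and overlapped between groups. Hcn2, a pacemaker channel of neurons, was at 90.8 to 119.5 TPM against 68.4 to 74.9 TPM (log2 change -0.44, edgeR adjusted p = 0.0225), and its change was -0.29 at ZT2 and -0.30 at ZT6. The calls of Pnpla2, Plin4 and Hcn2 were each lost when 1 of several mice was left out. Rpl27, Rps13 and Rpl6, all parts of the ribosome, fell by 0.38, 0.36 and 0.24, but edgeR called none of them (adjusted p 0.518, 0.480 and 0.281) and both rescalings of the TPM lost the calls. Rpl27 and Rps13 were also called in the mean of the other times (log2 changes -0.16 and -0.17, limma adjusted p 0.0226 and 0.0175). Hist1h4h has near-identical copies among the histone genes, so its log2 change of -1.09 is uncertain, and at the other times it ran from -0.73 to 0.56.

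No gene passed the test of ZT22 against the mean of the other 5 times. In limma 0 of 14580 genes were called (0.0%), with a smallest adjusted p of 0.567, and 565 genes (3.88%) lay under 0.05 before adjustment. In edgeR 0 genes were called, with a smallest adjusted p of 0.361 and 779 genes at an unadjusted p under 0.05. DESeq2 called 1, Ccl28, a mucosal chemokine with 27, 37, 8 and 19 counts in control mice and 64, 76, 68 and 49 counts in PLX5622 mice (difference 1.78, adjusted p = 0.0172). Without the filter on low values, limma called 2 genes below 1 TPM, Vdr and Gm49305. Vdr, the vitamin D receptor, was at 2.03, 1.06, 1.41 and 0.165 TPM in control mice and at 0.175, 0.115, 0.0297 and 0.143 TPM in PLX5622 mice (difference -0.88, limma adjusted p = 0.0419). The fourth control mouse was at the level of the treated mice. The same test of each other time against the remaining times called 0 genes as well, with 339 to 840 genes at an unadjusted p under 0.05, and so did ZT22 against each other time singly, with 453 to 736. The precision allows even large differences to be missed. The 95% interval of the difference had a median half-width of 0.32 on the log2 scale over all genes. Over the called genes it was 0.38. These intervals are not adjusted for the number of genes, so a call needs a larger difference. AC102496.1, with a difference of -1.73 (SE 0.37), had a limma adjusted p of 0.567, and the SE for C1qa was 0.49.

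The 10 genes with the smallest p in this test are given as the order of the list and not as calls. Mrpl34, a protein of the mitochondrial ribosome (chromosome 8, 71464959 to 71465747, GRCm38), was at 115, 127, 125 and 109 TPM in control mice and at 64.4 to 91.5 TPM in PLX5622 mice. It fell by 0.54 at ZT22 (SE 0.11, limma adjusted p = 0.00304), against a change of -0.06 over the other times, a difference of -0.48 (95% interval -0.73 to -0.23, limma unadjusted p = 4.20e-04, adjusted p = 0.905). The control mean at ZT22, 119 TPM, was the highest of the 6 control means, which ran from 89.0 to 101 TPM elsewhere, and the PLX5622 mean, 82.0 TPM, was the lowest of the 6 PLX5622 means, with 86.4 to 102 TPM elsewhere. edgeR called Mrpl34 at ZT22 at a like size (-0.44, adjusted p = 0.00962), and the limma call was lost without the second PLX5622 mouse and in the fit to the 8 libraries alone. Mrpl3, another mitochondrial ribosomal protein, had the same form, with 58.6, 70.7, 62.4 and 60.7 TPM in control mice and 40.5, 38.7, 49.1 and 46.2 TPM in PLX5622 mice (difference -0.59, limma adjusted p = 0.567). In the counts the log2 change of Mrpl3 was -0.15 and not called (edgeR adjusted p = 0.443).

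The rest of the 10 were Bet1, a vesicle fusion protein, Mpv17l2, another mitochondrial protein, the DNA repair ligase Fancl, Ggnbp1, and 4 transcripts without a known protein, AC102496.1, Gm29668, Gm11837 and Gm31946. Mpv17l2 was at 51.1, 50.8, 50.8 and 51.5 TPM in control mice and at 38.8, 41.7, 39.4 and 38.8 TPM in PLX5622 mice, a tight pair of groups (difference -0.43, unadjusted p = 7.11e-04). Bet1 was at 27.9, 31.1, 32.4 and 27.8 TPM against 22.6, 20.3, 22.4 and 22.4 TPM (difference -0.56, unadjusted p = 6.49e-04). In the counts their log2 changes at ZT22 were -0.13 and -0.17, and neither gene was called at ZT22 by edgeR or limma. Of the 10 genes, Mrpl34 alone was called at ZT22 by edgeR among the 8 that edgeR tested. Sulf1 came a few places behind, with a difference of 0.49 (SE 0.14, unadjusted p = 9.58e-04): its PLX5622 mean was 6.95 TPM at ZT22 and 4.49 to 5.77 TPM at the other times, while its control means stayed between 3.95 and 5.03 TPM.

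**Figure D4:**
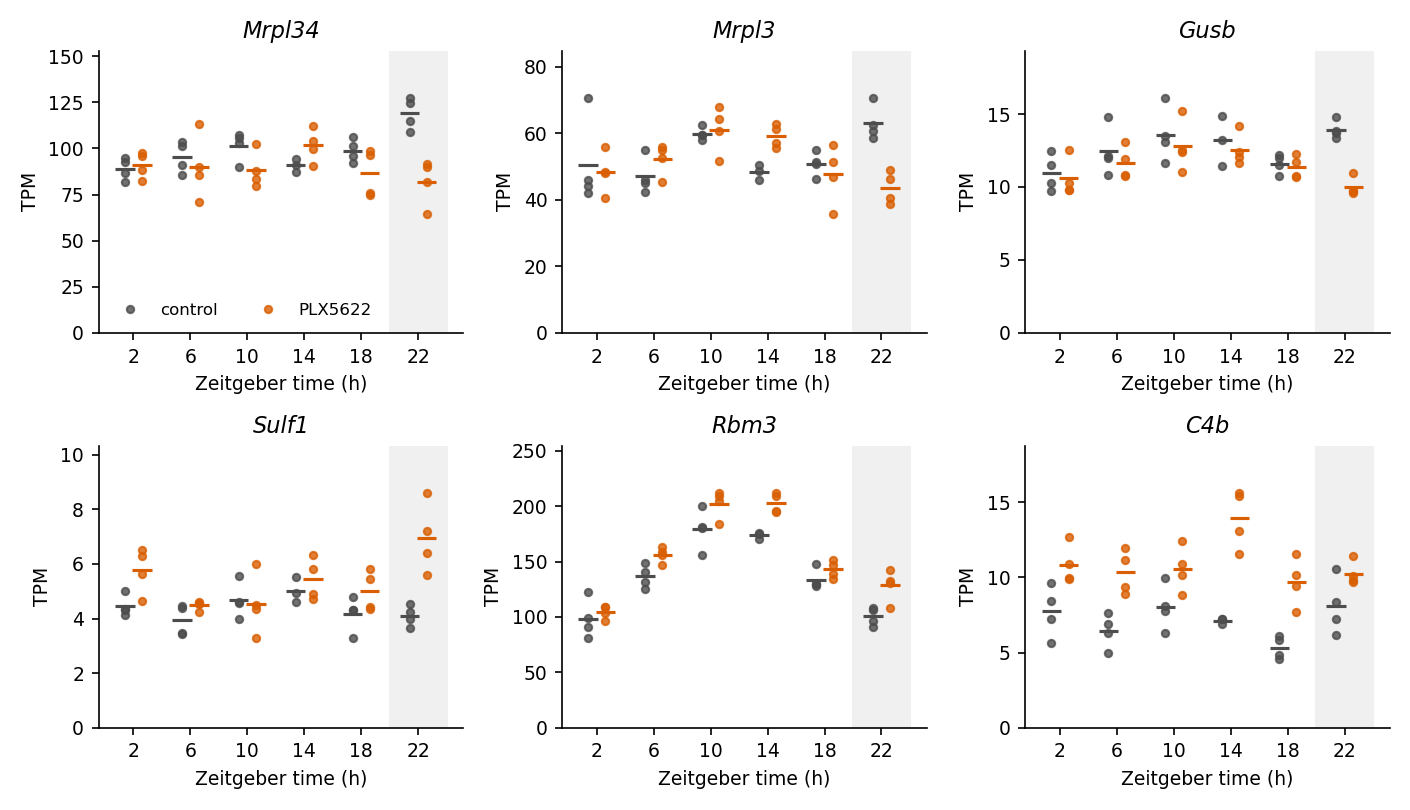
TPM of 6 genes in each library by Zeitgeber time in hours, with control mice in grey, PLX5622 mice in orange, group means as lines and ZT22 shaded. Mrpl34, Mrpl3 and Gusb are lower and Sulf1 is higher in all 4 PLX5622 mice at ZT22. Rbm3 rises and falls over the day in both diets, which was not tested, and C4b overlaps between diets at ZT22.

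Outside the microglial, border macrophage, complement and MHC, and protease lists, 1 of the genes in the other lists was called at ZT22, Rbm3. The oligodendrocyte list of 13 genes had a median of -0.05 at ZT22, where each of the other 5 times had a positive median of 0.15 to 0.31. No member passed at ZT22. Mobp, a myelin protein, was at 1004, 1077, 1103 and 799.8 TPM in control mice and at 659.9, 793.7, 767.2 and 551.8 TPM in PLX5622 mice, so the groups were just apart (log2 change -0.53, limma adjusted p = 0.471, difference from the other times -0.50, unadjusted p = 0.0430). Mbp, the myelin basic protein, had -0.47 (difference -0.45, unadjusted p = 0.0409). Over the list, 10 genes were below 0 and 3 above. The oligodendrocyte precursor list was evenly split, with 5 of 10 genes below 0 and a median of -0.02. The amount of white matter in each sample was not measured. Striatal genes varied between mice of 1 diet, with Drd2 at 12.7, 23.0, 10.7 and 22.1 TPM in control mice and 9.29, 16.1, 17.3 and 3.70 TPM in PLX5622 mice, and the part of dissection in these values was not tested.

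**Figure D5:**
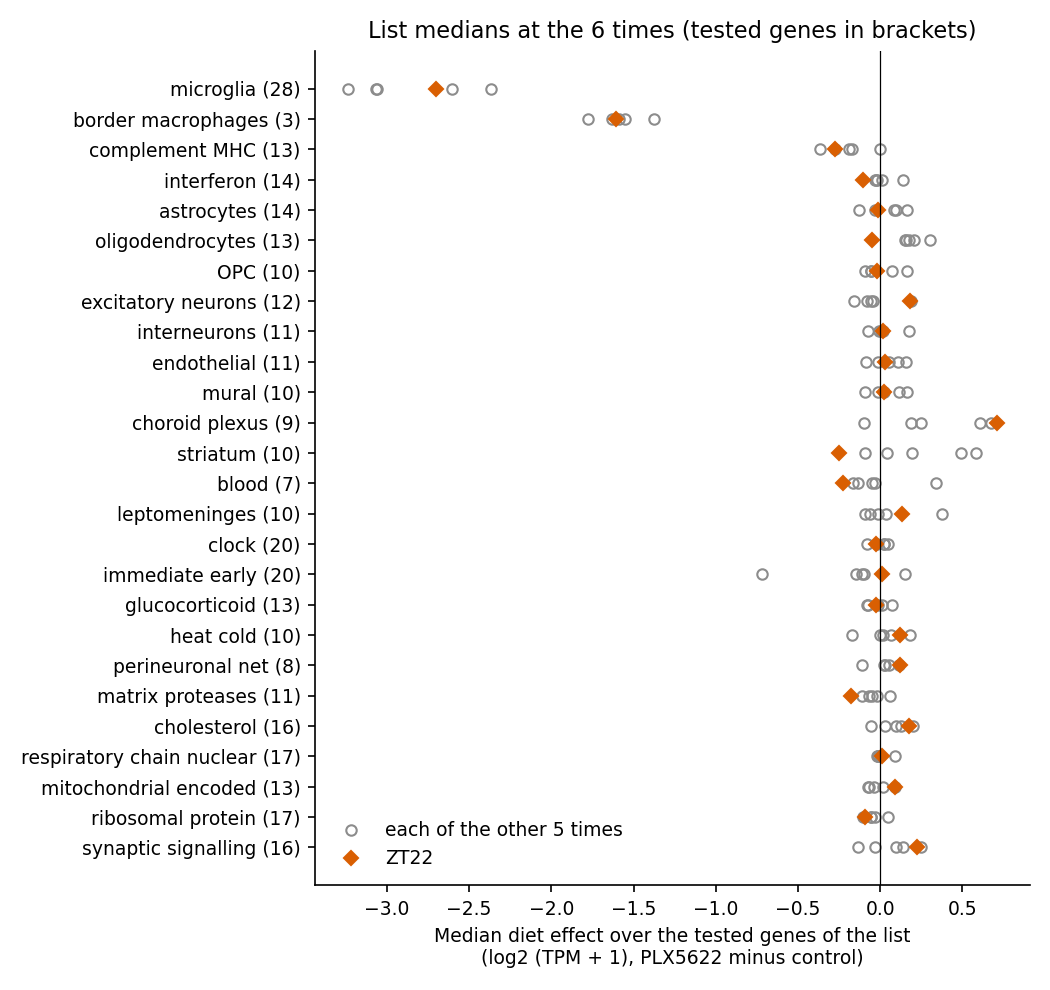
Median diet effect (log2(TPM + 1), PLX5622 minus control) over the tested genes of each list, with ZT22 as filled diamonds and the other 5 times as open circles. The microglia median at ZT22 is -2.70, inside the range of the other times. Outside the range of the other times are those of oligodendrocytes, striatum, choroid plexus, blood, interferon, perineuronal net, matrix proteases and mitochondrially encoded genes. Of these lists, only that of matrix proteases held genes called by limma. In each list some time is highest and some time lowest, so an outlying median does not by itself set ZT22 apart.

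Choroid plexus genes leaned the other way without a call, with a median of 0.71 over 9 tested genes. The same median was 0.68 at ZT10 and 0.60 at ZT14, and at the other times it went down to -0.10 at ZT2. Ttr, the thyroid hormone carrier of the choroid plexus, was at 701, 381, 554 and 61.1 TPM in control mice and at 514, 1241, 1092 and 872 TPM in PLX5622 mice (log2 change 1.51, limma adjusted p = 0.394). The fourth control mouse was low and the groups overlapped. The glucocorticoid response list of 13 genes had a median of -0.03, with 8 genes below 0 and 5 above. In 2 of the 13 the values did not overlap between diets, where 4.84% of all tested genes did not. These were the stress-linked metallothioneins Mt2 and Mt1, lower in all 4 treated mice than in any control, without passing (log2 changes -0.43 and -0.31, limma adjusted p 0.102 and 0.216). Their differences from the other times were -0.42 (limma unadjusted p = 0.00444) and -0.33 (limma unadjusted p = 0.00678). The smallest limma adjusted p of the list in that test was 0.9998.

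No diet effect on the clock genes was detected at ZT22. In limma 0 of 20 were called, 12 were below 0 and 8 above, and the changes ran from -0.16 for Dbp to 0.22 for Npas2. Arntl, which encodes BMAL1, was at 11.2 to 14.1 TPM in control mice and 11.5 to 14.3 TPM in PLX5622 mice, overlapping throughout (log2 change 0.01, SE 0.11). Per2, a negative arm gene, averaged 5.64 and 5.54 TPM, and Nr1d1, which encodes REV-ERB alpha, 35.5 and 34.7 TPM. Among 20 immediate early genes the median was 0.01 and none was called, and the same held for the 8 tested perineuronal net genes (median 0.12). Acan, which encodes the net proteoglycan aggrecan, was below the filter, at 0.364 to 0.75 TPM in control mice and 0.371 to 0.992 TPM in PLX5622 mice. The remaining lists, of astrocytes, oligodendrocyte precursors, excitatory neurons, interneurons, endothelium, mural cells, blood, leptomeninges, interferon response, glucocorticoid response, cholesterol synthesis, nuclear and mitochondrial respiratory chain genes, ribosomal proteins and synaptic signalling, had 0 genes called by limma, with medians between -0.23 for blood and 0.22 for synaptic signalling. edgeR called 2 of the 13 mitochondrially encoded genes, among them mt-Atp8, which was at 3356.1 to 4707.5 TPM in control mice and 5136.9 to 6556.8 TPM in PLX5622 mice (log2 change 0.57, limma adjusted p = 0.0970, edgeR adjusted p = 0.0187).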

How the data were processed

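Cortical RNA from 47 mice was sequenced, and 8 libraries from ZT22 are described here. The authors aligned reads to GRCm38.p6 with STAR, and deposited whole-number counts for 54532 genes. The submitters' processing notes name STAR, featureCounts, edgeR, limma and mm10, with no roles. The deposited count table is named for FPKM, but it holds whole numbers with unequal column totals and was taken as raw counts, on which every edgeR and DESeq2 value rests. TPM values for 54281 genes were made by the authors with Salmon on GENCODE transcripts and deposited. TPM are relative, so a fall in abundant transcripts raises the others. Whether counting used strand is not given in the sources used here.

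Diet effects at each time were estimated with limma 3.58.1 in R 4.3.3 on log2(TPM + 1), with 12 group means over all 47 libraries, for 14580 genes averaging at least 1 TPM, with Benjamini-Hochberg adjustment at 0.05. A fold on this scale understates the change of low genes. The effect at ZT22 was then tested against the mean effect at the other 5 times. Counts were tested with edgeR 4.0.16 (quasi-likelihood) and DESeq2 1.42.0. Other alternatives changed the pseudocount, filter, scaling, covariates, replicate block and libraries. Scripts were tested on simulated data. Sequences are from RefSeq.

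Genes named were the 12 lowest and 12 highest called genes whose groups did not overlap, the 10 with the smallest p against the other times, called members of the cell type and pathway lists (otherwise up to 4 with the smallest p), and clock, microglial and net genes named by the study. Genes in no list and genes called at ZT22 alone were picked after their values were seen. Members and lists were chosen with earlier results of these data known. Samples were grouped by their labels, and 0 columns were left unused. Column totals gave the depth, 17161327 to 23827625 counts at ZT22. Figures used Python 3.11.15 and matplotlib 3.10.9. A few genes are counted but not reported here by name.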

Additional observations from a re-analysis of the deposited data

Results flagged for a closer look

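In 17 of 247 groups of 4 mice checked among the named genes at ZT22, 1 mouse lay apart from the other 3 by a Dixon gap test at the 95% level, where chance alone gives about 1 in 20, or 12.35 groups. The clearest set was in the fourth mice. Fos was at 20.9 TPM in the fourth control mouse (others 5.70 to 6.07) and at 17.8 TPM in the fourth PLX5622 mouse. Npas4 was at 8.76 TPM and 7.45 TPM in the same mice (others at most 2.25), and Arc at 139 TPM and 115 TPM (others at most 64.6). The fourth mouse was highest in Npas4 in all 11 groups of 4 over the 6 times, so this was not particular to ZT22. Leaving out both mice at ZT22 kept 146 of the 189 calls, and leaving out the fourth mouse of every group kept 148.

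In control mice, the second mouse was high in Inpp5d at 14.5 TPM and in Hcn2 at 119.5 TPM. In PLX5622 mice, the first mouse was high in Fcgr3 at 4.43 TPM and Sall1 at 5.28 TPM and low in Olig1 at 96.0 TPM. The second PLX5622 mouse was high in Fancl at 4.25 TPM and S100a9 at 18.3 TPM and low in Bet1 at 20.3 TPM. The third was low in Flt1 at 14.9 TPM, and the fourth was high in Gusb at 11.0 TPM and Lum at 1.92 TPM.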

How the results depend on the processing

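The 189 calls, made up of 182 genes called lower at ZT22 and 7 genes called higher at ZT22, became 77 (76 lower, 1 higher) with a filter of 5 TPM, 308 (287 lower, 21 higher) with edgeR and 369 (329 lower, 40 higher) with DESeq2. The 7 higher calls became 23 with median-of-ratios scaling, 21 with upper-quartile scaling, 46 with the mitochondrial share as a covariate and 4 without the fourth mouse of both groups or of every group, alternatives chosen after seeing the data. Leaving out 1 mouse at a time gave 139 to 197 calls in all and 3 to 8 higher calls, with 3 without the second control or the third PLX5622 mouse and 4 without the fourth PLX5622 mouse. The cause of these shifts was not tested. The microglia list kept 27 calls in every setting except the 5 TPM filter, with 22.

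The test of ZT22 against the other times called 2 genes without a filter, 1 with DESeq2 and 0 in every other setting, leave-one-out included. With the replicate block there were 208 calls, 12 of them higher, and 184 were among the 189. Over all genes at ZT22, same-numbered mice had deviations correlated at r 0.094, 0.0099, 0.097 and 0.072. Mice of different numbers ran from r -0.124 to 0.147. With so few pairs these values do not decide whether a block is needed, and the unblocked fit was kept. The fourth mouse was nevertheless highest in Npas4 in all 11 groups of 4, so the number does mark something shared. Fitted to the 8 libraries alone, 137 genes were called, 125 of them among the 189. Of 65 named genes called at ZT22, 45 could be tested in all 21 settings, and 24 of these kept the call in each. A further 6 genes kept it in every setting they could be tested in, and no called value changed sign. Groups of 4 and a median SE of 0.15 limit what could be seen.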
